A study of Mus musculus with 54 samples.

Results

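Stk25, Gdpd3, Gm13306 and Mir1931 are 4 genes whose array signal in the brain of the inbred mouse strain C57L/J lay far from that of 5 other strains. They were picked for that difference, so their C57L/J values set against the other strains are a description and carry no test. They are 4 of 18193 genes that had a probe set of their own on the array. The annotation gave 6 of 45101 probe sets (the short-oligonucleotide groups that each report 1 signal) to these 4 symbols. Each gene had 1 probe set of its own, and 2 more were shared by 5 symbols of the Ccl27 chemokine family, Gm13306 among them. The rule that chose the genes named no threshold, so there is no nearest gene inside or outside it. Earlier rankings of these data had also looked at the range over all 6 strains. A high C57BL6/J level could therefore have helped to place Gm13306 and Mir1931 among the 4.

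The arrays carried RNA from hippocampus, striatum and brainstem of male C57L/J, C57BL10/J, C57BLKS/J, C3H HeJ, BalbC/J and C57BL6/J mice. All mice were killed at postnatal day 60. In each strain and tissue 1 of 3 arrays came from mice tested for prepulse inhibition, a behavioural measure of how a soft sound dampens the startle to a loud one, begun at postnatal day 50. The other 2 arrays came from untested mice, every array pooled 3 animals, and the design compared strains, tissues and testing over 54 arrays. The protocol in the labels names 12 mice per strain, while the pools of a strain took 27 portions of tissue over the 3 tissues. If those 12 were the pooled mice, some gave more than 1 tissue, and the labels do not say which.

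STK25 is a serine/threonine kinase of the GCKIII family that sits in STRIPAK phosphatase-kinase assemblies and at the Golgi, and in mouse neurons it works in polarity and Golgi shape against Reelin and DAB1 signalling. GDPD3 is a glycerophosphodiester phosphodiesterase that acts as a lysophospholipase D, releasing lysophosphatidic acid and N-acylethanolamines from lysophospholipids. Gm13306 is a predicted mouse gene of the family of CCL27, a chemokine that signals through the receptor CCR10. Mir1931 encodes a microRNA hairpin, which is cut to a short RNA whose seed bases pair with target transcripts.

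The microRNA and a stretch of the chemokine family are printed because they show the small RNA that Mir1931 encodes and how alike Gm13306 and Ccl27a are near their starts. Sequences come from RefSeq on build GRCm38.p6, in which 1 of the 4 genes matched the microRNA table and the other 3 matched the table of gene starts. The mature microRNA lies at chr10:93162879-93162900 on the plus strand, with its seed, bases 2 to 8, in capitals. The hairpin lies at chr10:93162785-93162903, plus strand, with the mature strand in capitals (bases 95 to 116). The annotation places it inside the gene body of Cdk17, a cyclin-dependent kinase gene.
mmu-miR-1931: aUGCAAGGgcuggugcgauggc
Mir1931 hairpin: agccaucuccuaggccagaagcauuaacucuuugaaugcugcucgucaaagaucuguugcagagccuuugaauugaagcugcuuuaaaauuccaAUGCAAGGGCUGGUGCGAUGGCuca
None of the other microRNAs among the 1679 mature names in that table shared the seed (0 with the same 7 bases).

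All 4 windows of 300 bases around the annotated starts of Gm13306 were identical, base for base, to windows of Ccl27b. A stretch of 238 bases upstream of one start of Gm13306 (chr4:42157854-42158091, plus strand) was set against the matching stretch of Ccl27a (chr4:41770225-41770462, minus strand). Capitals mark the 2 bases at which they differ, which leaves 99.2% identical.
Gm13306: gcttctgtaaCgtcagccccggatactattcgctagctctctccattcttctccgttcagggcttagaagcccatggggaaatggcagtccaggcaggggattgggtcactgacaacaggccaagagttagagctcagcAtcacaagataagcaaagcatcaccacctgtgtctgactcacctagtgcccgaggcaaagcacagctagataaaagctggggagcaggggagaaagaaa
Ccl27a: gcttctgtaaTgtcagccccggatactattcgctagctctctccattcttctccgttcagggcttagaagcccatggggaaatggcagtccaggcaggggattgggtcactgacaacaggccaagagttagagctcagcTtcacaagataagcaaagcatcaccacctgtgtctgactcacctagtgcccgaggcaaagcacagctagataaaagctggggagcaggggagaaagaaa
These stretches are not the array's probes. Probe sequences were not used here, so which family members a probe set reads was not tested.

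Signals are the deposited log2 values, on which 1 unit is a doubling. An array's 40th percentile, between 3.12 and 3.47, served as the level a probe set had to pass on at least 3 arrays of a tissue to be tested, and all 6 probe sets passed in every tissue. The markers chosen for each tissue matched its label. On the arrays of their own tissue, mean marker levels lay between 8.78 and 9.45 for hippocampal genes, between 12.88 and 13.86 for striatal genes and between 8.08 and 9.85 for brainstem genes. Of 54 arrays, 53 correlated best with another array of their own strain and tissue, the exception being the tested C57L/J striatum array. In C3H HeJ brainstem the second untested array correlated least with its group (mean r = 0.989), and its cerebellar markers averaged 12.69, against 7.56 and 8.12 on the other C3H HeJ brainstem arrays. In C57L/J striatum, the striatal markers averaged 13.85 on the tested array and 13.44 and 12.88 on the untested ones, and 4 of 8 were called lower than in the other strains. With 3 arrays per strain and tissue, the number of arrays limits the precision of every value, and p-values reflect how far pools of mice differ. Each SE and p pools the spread over all strains of a fit, so both are too small for a strain whose arrays vary more than the rest.

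**Figure D1:**
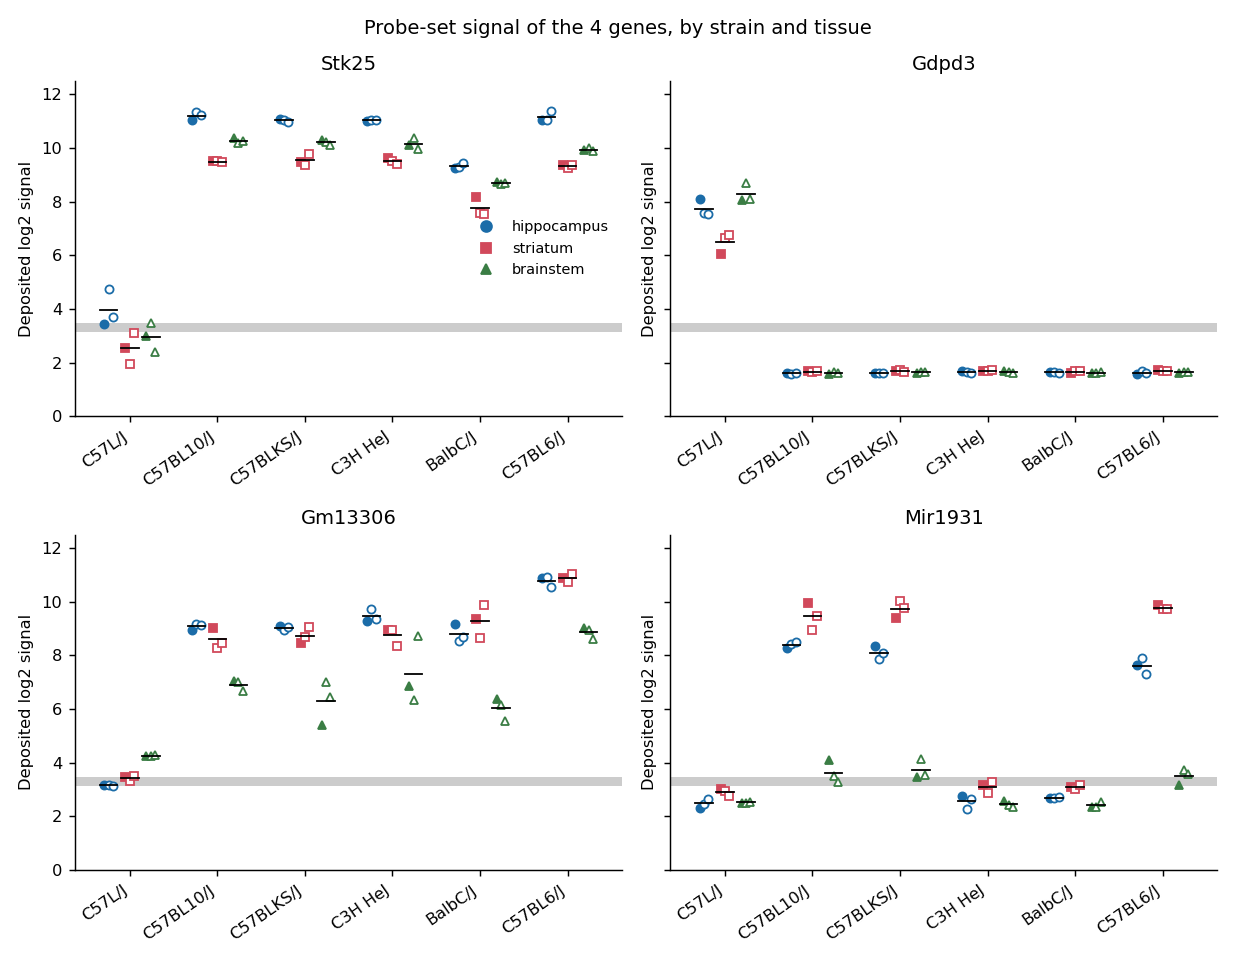
Deposited log2 signal of the single-gene probe sets of Stk25, Gdpd3, Gm13306 and Mir1931 (vertical axis) on all 54 arrays, by strain (horizontal axis) and tissue (colour and shape), with filled symbols for tested mice, open symbols for untested mice, a black line at each mean of 3 arrays and a grey band over the arrays' 40th percentiles. Stk25 and Gm13306 are lowest and Gdpd3 highest in C57L/J, while Mir1931 is at or below the band in C57L/J, C3H HeJ and BalbC/J alike.

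Stk25 was low in all 3 C57L/J tissues and high in every other strain. Hippocampal C57L/J arrays read 3.45 (tested), 4.74 and 3.70 (untested), while the 15 other arrays ran between 9.26 and 11.37 with a median of 11.04. Striatal C57L/J arrays read 2.56 (tested), 1.95 and 3.09, against 7.52 to 9.77 (median 9.41) in the others. The C57L/J levels in brainstem were 3.00 (tested), 3.48 and 2.41, against 8.67 to 10.37 (median 10.11). No C57L/J array overlapped another strain's, and the gap between the groups was 4.52, 4.43 and 5.19 log2 units in the 3 tissues. The C57L/J difference from the mean of the other strains was -6.79 (SE 0.16), -6.59 (SE 0.17) and -6.89 (SE 0.15) in hippocampus, striatum and brainstem. By size it ranked 2nd, 3rd and 1st of all probe sets tested. All 3 C57L/J arrays passed the 40th percentile in hippocampus, none in striatum and 1 in brainstem. Measured against the percentile, Stk25 was at least 62.2-fold lower in C57L/J striatum. In these tissue extracts fewer cells of a type and less RNA per cell cannot be told apart. Probe sequences were not checked for differences between strains either. How far the signal of any of the 4 genes reflects the amount of RNA was therefore not tested.

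BalbC/J was a second, smaller departure of Stk25 that the choice of genes did not use. Its mean was 9.33 ± 0.10 in hippocampus, 7.77 ± 0.37 in striatum and 8.69 ± 0.03 in brainstem, against 11.15 ± 0.19, 9.33 ± 0.06 and 9.93 ± 0.05 in C57BL6/J (SD, n = 3). The differences of -1.82 (SE 0.21), -1.56 (SE 0.23) and -1.24 (SE 0.19) passed limma's moderated test (adjusted p = 1.74e-05, 0.000408 and 0.000563). C57BL10/J, C57BLKS/J and C3H HeJ differed from C57BL6/J by between -0.12 and 0.35 and did not pass, so these neighbours in the order of levels were not separated. Farp2, a gene whose span overlaps that of Stk25 in the annotation, was higher in BalbC/J than in C57BL6/J by 1.51 in hippocampus (adjusted p = 0.000137) and 0.92 in striatum (adjusted p = 0.0253). In brainstem its difference was 0.53 (adjusted p = 0.42). In C57L/J, where Stk25 was lowest, Farp2 averaged 7.41, 7.36 and 8.11, against 6.98, 7.54 and 7.81 in the other strains, and did not pass in any tissue (adjusted p = 0.0806, 0.58 and 0.823). The hippocampal mean of the others includes BalbC/J, at 8.21. C57L/J hippocampal arrays ran from 7.23 to 7.64. Every C57BL6/J, C57BL10/J, C57BLKS/J and C3H HeJ array lay lower, at 6.97 or less, a comparison made after the values were seen and not tested.

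Gdpd3 showed the opposite form, a signal in C57L/J alone. For hippocampus the C57L/J arrays read 8.10 (tested), 7.58 and 7.56, while the 15 others ran between 1.56 and 1.70 (median 1.61). In striatum C57L/J gave 6.06 (tested), 6.65 and 6.77, against 1.62 to 1.74 (median 1.68). Brainstem C57L/J arrays read 8.05 (tested), 8.68 and 8.10, against 1.59 to 1.68 (median 1.63). None of the 15 other arrays passed the 40th percentile in any tissue, whereas all C57L/J arrays did. The difference was 6.12 (SE 0.07), 4.82 (SE 0.09) and 6.64 (SE 0.08), ranking 6th, 17th and 2nd by size. These SE pool the spread of all strains, and the C57L/J arrays alone had an SD of 0.30, 0.38 and 0.35. As the other strains lay below the percentile, the C57L/J mean is better read as at least 21.3-fold, 9.82-fold and 31.9-fold higher in hippocampus, striatum and brainstem, taken against that percentile.

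The 5 other strains had no measured order for Gdpd3, since all their arrays lay below the percentile, with hippocampal means between 1.60 in C57BL10/J and 1.64 in C3H HeJ. Within C57L/J, where all arrays lay above it, the mean varied by tissue, a contrast the choice did not use. The mean was higher in hippocampus than in striatum by 1.18, and lower in hippocampus than in brainstem (difference -0.58). Striatum minus brainstem was -1.77. Hippocampal and brainstem C57L/J arrays overlapped, at 7.56 to 8.10 and 8.05 to 8.68. The fit's SE pools arrays of the other strains that lay below the percentile. It is too small for C57L/J, so no p is given for these differences. Ypel3, the next gene along the chromosome that was tested, a member of the yippee-like family, averaged 10.95, 10.43 and 10.97 in C57L/J, against 10.82, 10.33 and 10.94 in the others (adjusted p = 0.191, 0.661 and 0.989).

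The probe set of Gm13306 alone was lowest in C57L/J in all tissues, by a smaller margin in brainstem. C57L/J hippocampus arrays read 3.16 (tested), 3.18 and 3.14, against 8.55 to 10.92 (median 9.16) on the others. Striatal C57L/J arrays read 3.48 (tested), 3.33 and 3.52, against 8.28 to 11.02 (median 8.96). In brainstem C57L/J gave 4.26 (tested), 4.25 and 4.29, against 5.42 to 9.03 (median 6.87). The groups did not overlap, with gaps of 5.37, 4.76 and 1.13. The difference was -6.28 (SE 0.11), -5.80 (SE 0.22) and -2.82 (SE 0.38). No C57L/J array passed the percentile in hippocampus, and all 3 did in striatum and in brainstem, so its signal was above that level there. In hippocampus, Gm13306 was at least 71.1-fold lower in C57L/J, taken against the percentile.

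Among the other strains 4 stood below C57BL6/J for this probe set. In hippocampus, striatum and brainstem C57BL10/J averaged 9.09, 8.60 and 6.91, C57BLKS/J 9.04, 8.73 and 6.30, C3H HeJ 9.46, 8.75 and 7.30, and BalbC/J 8.80, 9.29 and 6.03. C57BL6/J averaged 10.79 ± 0.20, 10.87 ± 0.15 and 8.87 ± 0.22 (SD, n = 3). All 12 differences from C57BL6/J were negative, between -2.84 and -1.33, and all passed limma's test (adjusted p between 1.25e-07 and 0.0438). These tests are not independent of the range over strains named above. The C3H HeJ brainstem mean rested on unlike arrays: 6.87 (tested), 6.33 and 8.71, the highest being the array with the high cerebellar markers. Without that array the C3H HeJ difference in brainstem was -2.28 (adjusted p = 0.00069) instead of -1.57 (adjusted p = 0.0419). The part of cerebellar tissue in that value was not tested. The brainstem calls of C57BL10/J and C3H HeJ were each lost in 15 of 26 alternative settings, 13 of them with 1 array left out (adjusted p up to 0.135 and 0.138), and that of C57BLKS/J in 2 (adjusted p up to 0.0707).

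The 2 probe sets shared by the Ccl27 family gave another strain order. Family probe set A averaged 10.77 ± 0.09 in C57L/J hippocampus, 11.16 ± 0.40 in striatum and 10.48 ± 0.09 in brainstem (SD, n = 3). The 15 other arrays ran from 8.60 to 10.94, from 8.58 to 11.28 and from 8.32 to 10.32 in the same tissues. The C57L/J arrays overlapped the others in hippocampus and striatum and lay just above them in brainstem, with a gap of 0.06. Probe set B behaved alike, with C57L/J means of 10.91, 11.39 and 10.32, an overlap in 2 tissues and a gap of 0.02 in brainstem. C57L/J minus the mean of the other strains was 0.79, 1.00 and 1.00 for A and 0.67, 0.93 and 1.01 for B. The low strains were C3H HeJ and BalbC/J: they fell below C57BL6/J by differences between -2.29 and -1.42 in all 12 comparisons (adjusted p between 5.35e-12 and 0.00201), while C57BL10/J and C57BLKS/J did not pass in any. Set against C57BL6/J alone, C57L/J differed by -0.16, 0.41 and 0.36 for A and by -0.23, 0.28 and 0.29 for B. The probe sets annotated to Gm13306 thus disagreed on C57L/J. The correlation of the Gm13306 probe set with A and B was -0.222 and -0.205 over 54 arrays centred on their tissue means, against 0.985 between A and B.

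**Figure D2:**
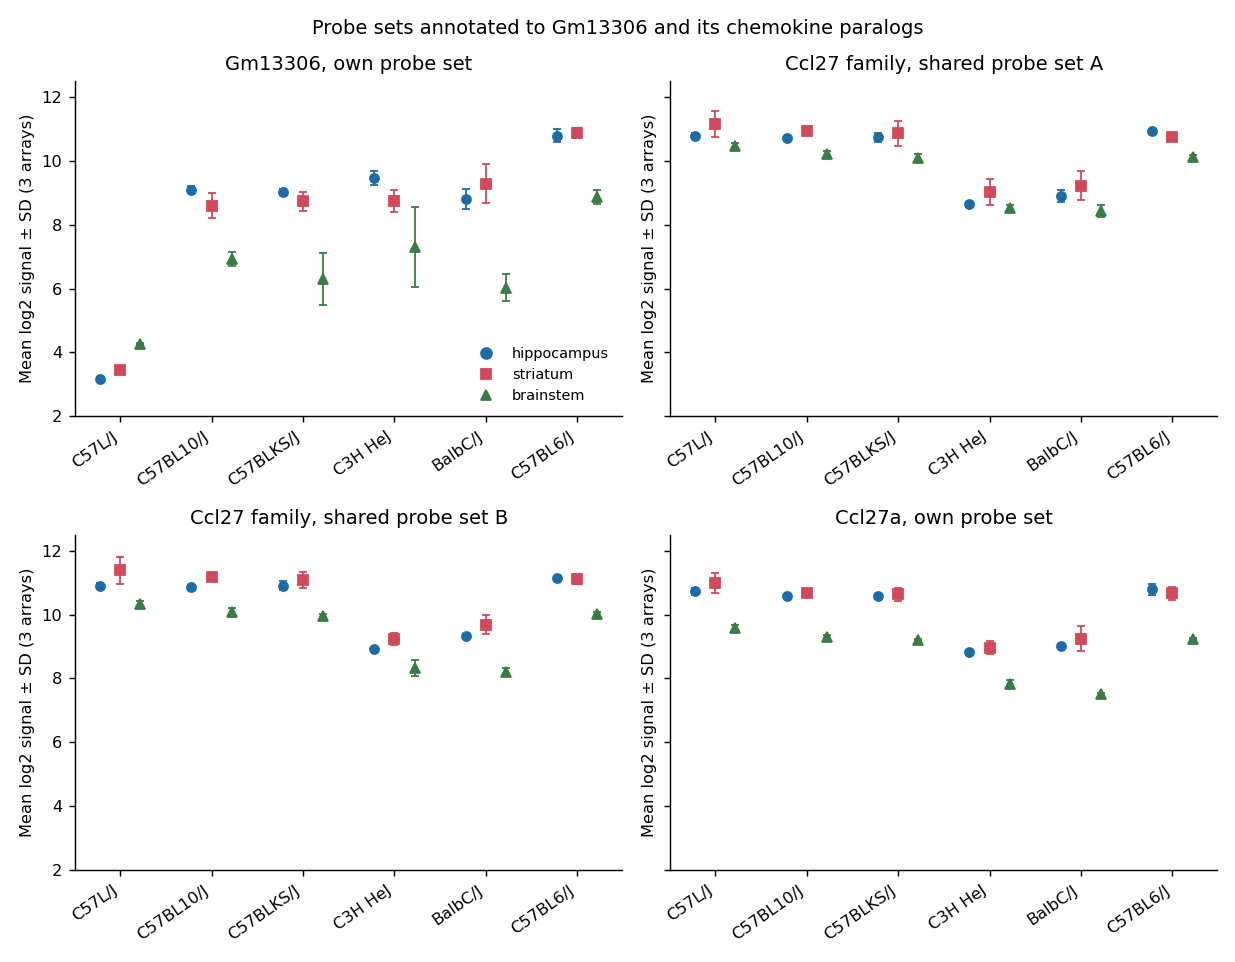
Mean log2 signal ± SD of 3 arrays (vertical axis) by strain (horizontal axis) and tissue (colour and shape) for the probe set of Gm13306 alone, the 2 probe sets shared by the Ccl27 family and the probe set of Ccl27a alone. C57L/J is lowest only for the first of these 4 probe sets, and C3H HeJ and BalbC/J are lowest for the other 3.

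Ccl27a, the paralog with a probe set of its own and the nearest tested gene on one side of Gm13306, had the same low strains as the shared probe sets. It averaged 10.73, 10.98 and 9.58 in C57L/J, against 9.95, 10.04 and 8.62 in the other strains, and was called higher in hippocampus, striatum and brainstem (differences 0.78, 0.94 and 0.97, adjusted p = 5.14e-07, 0.000886 and 2.94e-08). Against C57BL6/J alone it did not pass in hippocampus or striatum, at -0.063 and 0.31 (adjusted p = 0.785 and 0.436). C3H HeJ and BalbC/J were lower than C57BL6/J by differences between -1.96 and -1.39 in all tissues (adjusted p between 1.57e-10 and 0.000199).

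Mir1931 did not match a pattern private to C57L/J. Its signal is that of 1 probe set annotated to the gene, and whether that probe set reads the microRNA itself was not tested. Hippocampal C57L/J arrays read 2.31 (tested), 2.48 and 2.66, and the 15 others ran from 2.28 to 8.50 with a median of 7.64. In striatum C57L/J gave 3.01 (tested), 2.96 and 2.77, against 2.88 to 10.03 (median 9.40). C57L/J brainstem arrays all read 2.52, against 2.35 to 4.12 (median 3.26). C57L/J arrays overlapped those of other strains in every tissue, and C57L/J, C3H HeJ and BalbC/J did not pass the 40th percentile on any array. C3H HeJ averaged 2.56, 3.10 and 2.45 and BalbC/J 2.70, 3.10 and 2.41 in hippocampus, striatum and brainstem. The signal was found in C57BL10/J (8.40, 9.46 and 3.62), C57BLKS/J (8.11, 9.73 and 3.71) and C57BL6/J (7.62, 9.79 and 3.50). Their arrays passed the percentile on 9 of 9 in hippocampus and in striatum, and on 7 of 9 in brainstem, where the level lay close to it. C57L/J minus the mean of the 5 others was -3.40, -4.12 and -0.62. Against the 3 other C57 strains it was -5.56, -6.74 and -1.09, a comparison chosen after the values were seen.

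C3H HeJ was lower than C57BL6/J for Mir1931, with differences of -5.05 (SE 0.16), -6.68 (SE 0.21) and -1.04 (SE 0.20) in hippocampus, striatum and brainstem (adjusted p = 5.84e-12, 5.42e-11 and 0.0031). BalbC/J was lower too, with differences of -4.92, -6.69 and -1.09 (adjusted p = 8.21e-12, 4.4e-11 and 0.00297). As both strains lay below the percentile, the probe set's signal is better given as a bound against that percentile. It was at least 19.0-fold lower in C3H HeJ and 19.2-fold in BalbC/J hippocampus, and at least 94.9-fold and 97.1-fold lower in striatum. No such bound is given for brainstem, where C57BL6/J did not pass on all arrays. These tests, too, are not independent of the range over strains. C57BL10/J was higher than C57BL6/J in hippocampus, by 0.79 (SE 0.16, adjusted p = 0.0175), and did not pass elsewhere. That call was lost without either untested C57BL10/J array or without the second untested C57BL6/J array (adjusted p up to 0.0903). The strain differences among these 5 strains changed with tissue, with adjusted p = 3.07e-20 for strain by tissue in limma's fit over 54 arrays, a test added after the values were seen. That difference between tissues includes a brainstem level close to or below the percentile in all 5 strains. Mir1931 was the only member called there (1 of 6 probe sets, against 11.9% of all probe sets tested), and the others had adjusted p between 0.165 and 1. Over C57BL10/J, C57BLKS/J and C57BL6/J, hippocampus minus striatum was -1.59, hippocampus minus brainstem 4.42 and striatum minus brainstem 6.01 (adjusted p = 8.99e-14, 1.13e-27 and 3.2e-32).

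**Figure D3:**
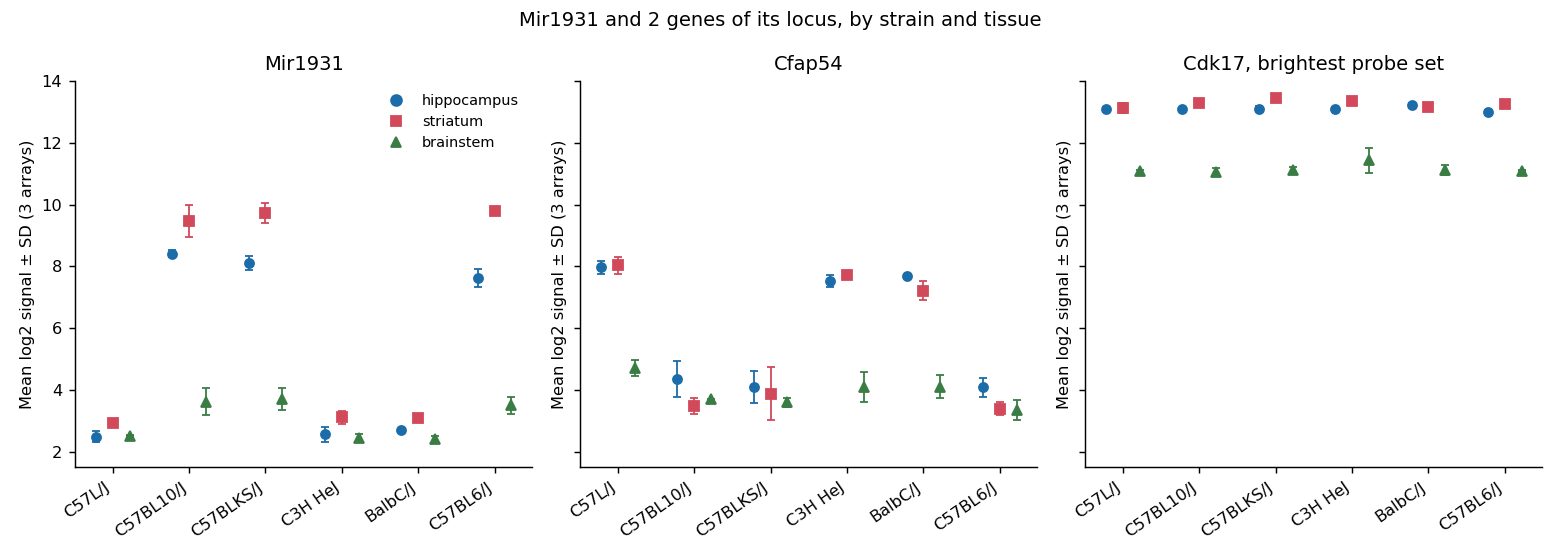
Mean log2 signal ± SD of 3 arrays (vertical axis) by strain (horizontal axis) and tissue (colour and shape) for Mir1931, Cfap54 and the brightest probe set of Cdk17. Mir1931 is low and Cfap54 high in C57L/J, C3H HeJ and BalbC/J, and the strains lie close together for Cdk17.

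The strain split of Mir1931 was met, turned round, by Cfap54, a cilia- and flagella-associated gene on the same chromosome and 2nd among the tested neighbours on one side. Cfap54 averaged 7.97 ± 0.22, 8.03 ± 0.27 and 4.71 ± 0.25 in C57L/J hippocampus, striatum and brainstem, against 5.54, 5.13 and 3.76 over the other strains. It was called higher in C57L/J by 2.43 (SE 0.21), 2.90 (SE 0.23) and 0.95 (SE 0.18), with adjusted p = 1.08e-06, 1.3e-06 and 0.00551. The brainstem call was lost without the tested or the second untested C57L/J array (adjusted p up to 0.0641). C3H HeJ and BalbC/J were higher than C57BL6/J in hippocampus by 3.44 and 3.60 (adjusted p = 2.78e-07 and 1.84e-07) and in striatum by 4.33 and 3.82 (adjusted p = 2.13e-07 and 1.05e-06). In brainstem C3H HeJ was higher by 0.76 (adjusted p = 0.0416), and BalbC/J differed by 0.76 and did not pass (adjusted p = 0.0576). Over 54 tissue-centred arrays Cfap54 had the lowest correlation with Mir1931 of all single-gene probe sets tested (r = -0.966). Cdk17, which holds the microRNA, did not follow it. Its brightest probe set averaged 13.10, 13.12 and 11.07 in C57L/J, against 13.11, 13.30 and 11.17 in the others (adjusted p = 0.864, 0.109 and 0.935). The dimmer Cdk17 probe set was lower in C57L/J hippocampus (difference -0.36, adjusted p = 0.0128) and did not pass in striatum (adjusted p = 0.253) or brainstem (adjusted p = 0.975).

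Counted over 3 tissues, the C57L/J arrays did not overlap the others for 11 of 18 pairings of a probe set with a tissue, 9 of 12 for the single-gene probe sets and 2 of 6 for the family ones. For hippocampus, striatum and brainstem this was 3 of 6, 3 of 6 and 5 of 6, where 4.09%, 2.07% and 1.76% of all probe sets tested did not overlap in either direction. A difference over 2-fold was met in 14 of 18 (4, 5 and 5 of 6 by tissue), against 1.75%, 2.71% and 1.39% of all probe sets. Since the genes were chosen on this contrast, nothing is read from these counts. The complete pattern, absent from all C57L/J arrays of a tissue and present on all 15 others with over 16-fold between the means, was met by 6, 4 and 2 probe sets of the whole array in hippocampus, striatum and brainstem. Gm13306 was among them in hippocampus and Stk25 in striatum. The reverse, present in C57L/J only and over 16-fold between the means, was met by 1 probe set in each tissue, which was Gdpd3. Means below the percentile enter these folds. Taken against the percentile, Gdpd3 in striatum was at least 9.82-fold higher, so over 16-fold is not shown there. As these genes were chosen on this contrast, nothing is read from their place in these counts. Erdr1 was picked for context as another gene low in C57L/J in these data, so its values carry no test. It averaged 4.20, 2.30 and 2.32 in C57L/J, against 9.16, 9.21 and 8.66 in the others (differences -4.96, -6.91 and -6.33). Another Erdr1 probe set was not tested in any tissue.

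The differences among the 5 strains other than C57L/J passed the F test for 15 of 18 pairings of probe set and tissue, all but those of Gdpd3, which no array of these strains measured above the percentile. That was 5 of 6 in each tissue, against 25.3%, 20.1% and 22.8% of all probe sets in hippocampus, striatum and brainstem. BalbC/J minus C57BL6/J passed for 5 of 6 probe sets in each tissue (14.5%, 7.48% and 10.8% of all), and C3H HeJ minus C57BL6/J for 4 of 6 (19.8%, 16.7% and 18.4% of all). C57BL10/J minus C57BL6/J passed for 2, 1 and 1 of 6 (2.52%, 0.514% and 3.88% of all), and C57BLKS/J minus C57BL6/J for 1 of 6 in each tissue (6.34%, 2.17% and 2.74% of all). These comparisons share the C57BL6/J arrays. For Gm13306 and Mir1931 they are not independent of the range over strains named above. The 2 family probe sets read nearly alike (r = 0.985), so the counts are a description and nothing is read from them.

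**Figure D4:**
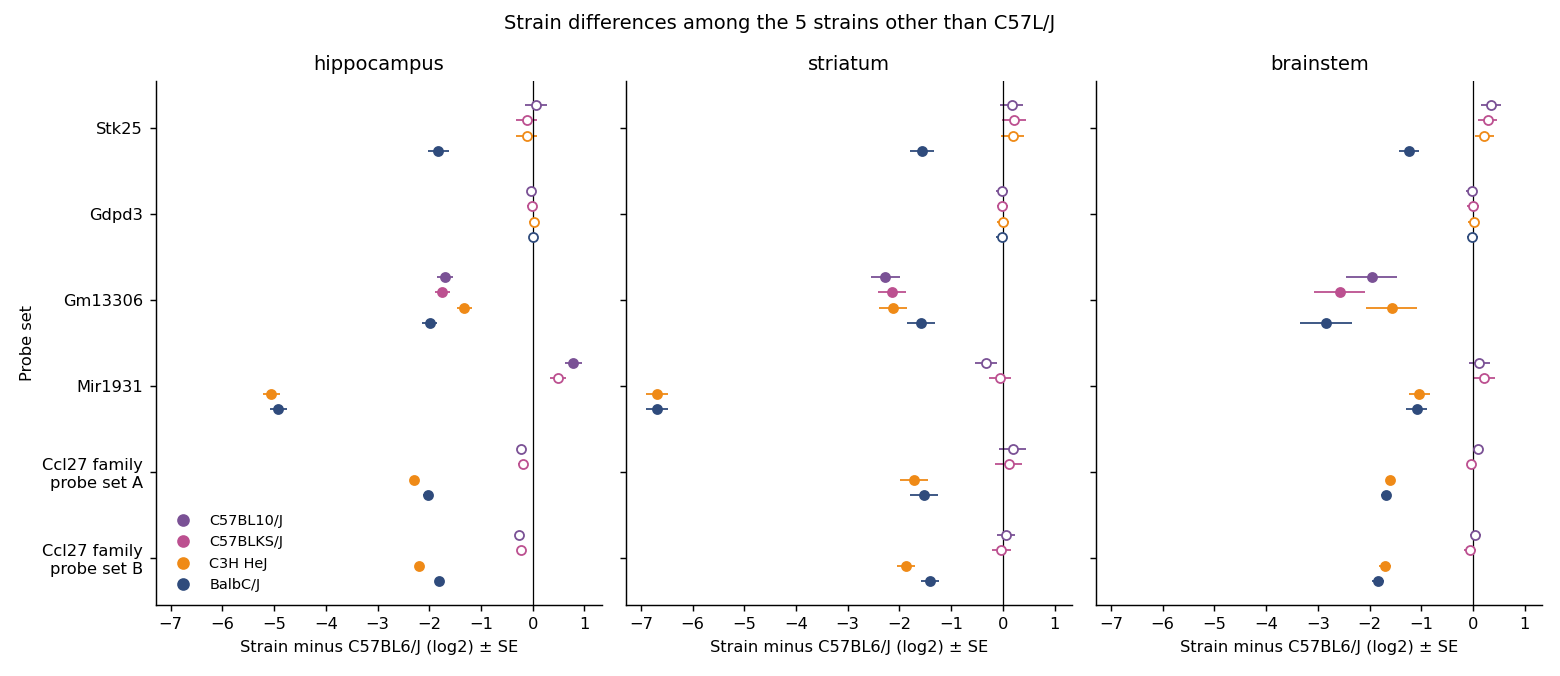
Strain minus C57BL6/J on the log2 scale ± SE (horizontal axis) for the 6 probe sets (vertical axis) in each tissue, with filled symbols where limma's adjusted p was under 0.05 and colours for the 4 strains. Stk25 is shifted in BalbC/J alone, Gm13306 in all 4 strains, Mir1931 and both family probe sets in C3H HeJ and BalbC/J, and Gdpd3 in none, apart from C57BL10/J hippocampus for Mir1931.

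Tissue differences were called for 12 of 18 contrasts within C57L/J and for 14 of 18 over the 5 other strains. In C57L/J these were 4, 4 and 4 of 6 for hippocampus minus striatum, hippocampus minus brainstem and striatum minus brainstem, against 66.1%, 65.4% and 74.2% of all probe sets. Over the other strains they were 4, 5 and 5 of 6, against 81.6%, 80.2% and 85%. A share this near to the background is no result about these genes. Of the 18 contrasts in C57L/J only 10 had all arrays above the percentile in both tissues, and 9 of these were called. The share over all probe sets with that limit was not counted, so nothing is read from the 9. The Gdpd3 calls among them rest on an SE that is too small, as given above. The 3 other calls rest on a level that was not measured above the percentile. Over the other strains Stk25 was higher in hippocampus than in striatum by 1.74 (adjusted p = 2.3e-16) and Gm13306 higher in hippocampus than in brainstem by 2.28 (adjusted p = 1e-13). In C57L/J the striatal arrays of Stk25 and the hippocampal arrays of Gm13306 all lay below the percentile, so no difference is given for them. The tissues had different lowest values (between -0.20 and -0.15 for hippocampus, between -0.02 and 0.03 for striatum and between -0.12 and -0.08 for brainstem), and the fit takes tissues of a strain as independent, though they may share mice. Levels near the floor are compared across tissues with those limits.

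Testing for prepulse inhibition was not followed by a called difference in any of the 6 probe sets (0 of 18, against 0%, 0% and 0% of all probe sets). Limma called 0 probe sets for tested minus untested in each tissue, with 1272, 1141 and 679 at an unadjusted p under 0.05 in hippocampus, striatum and brainstem. The member differences lay between -0.21 and 0.14, and the smallest unadjusted p was 0.0698, for family probe set B in striatum. For testing by tissue the count was also 0 (0% of all, 1064 at an unadjusted p under 0.05), with adjusted p = 1 for all 6. Strain by testing, a test added after the values were seen, was called for 0 of 18 (adjusted p between 0.0852 and 1), against 0.08%, 0.271% and 0.0509% of all probe sets. It rests on 1 tested array per strain and tissue and has 6 residual degrees of freedom.

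Most chromosome neighbours of the 4 genes did not pass the test for C57L/J. Of the 10 genes with a tested probe set on each side of a member, 80 over the 4 loci, the calls for C57L/J were 12 of 77, 16 of 75 and 7 of 78 in hippocampus, striatum and brainstem, against 18.7%, 10.8% and 5.4% of all probe sets. Those shares count all probe sets, while each neighbour stood for the brightest probe set of its gene. Shares per gene in each tissue are not given. In striatum the count of called neighbours depended on single arrays: it was 25 without the tested C57L/J array and 6 without the second untested one. At least 1 call was made for 6 of 20 neighbours of Stk25, 1 of 20 of Gdpd3, 5 of 20 of Gm13306 and 9 of 20 of Mir1931, where 22.3% of all genes tested had at least 1 call. Those called and over 2-fold in a tissue were 2 genes, Cfap54 beside Mir1931 and Pigo beside Gm13306. The median neighbour difference at each locus lay between -0.11 and 0.05 in every tissue.

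Pigo, an enzyme gene of glycosylphosphatidylinositol anchor synthesis, averaged 9.20, 9.03 and 9.26 in C57L/J, against 9.99, 10.06 and 10.07 in the other strains (differences -0.79, -1.03 and -0.82, adjusted p = 3.77e-06, 3.94e-05 and 4.49e-07). C3H HeJ and BalbC/J were low too: they differed from C57BL6/J by -1.34 and -1.35 in hippocampus (adjusted p = 1.31e-07 and 1.38e-07). The other called neighbours of Gm13306, named after their values were seen, were Ccl27a, Dctn3, Galt and Phf24. Dctn3, a dynactin subunit gene, was lower in C57L/J (differences -0.39, -0.61 and -0.74, adjusted p = 0.000131, 3.36e-06 and 2.6e-06). Phf24 was lower in hippocampus and brainstem (differences -0.69 and -0.38, adjusted p = 4.4e-05 and 0.0125), and Galt, the galactose-1-phosphate uridylyltransferase gene, was higher in striatum by 0.37 (adjusted p = 0.0111). At the Gdpd3 locus the 1 call was Bola2, a gene of iron-sulfur cluster handling, lower in striatum (difference -0.41, adjusted p = 0.00771). These calls also rested on single C57L/J arrays: Phf24 in brainstem was lost without the tested or the second untested one (adjusted p up to 0.104), Galt without either untested one (up to 0.127) and Bola2 without the second untested one (up to 0.0868).

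**Figure D5:**
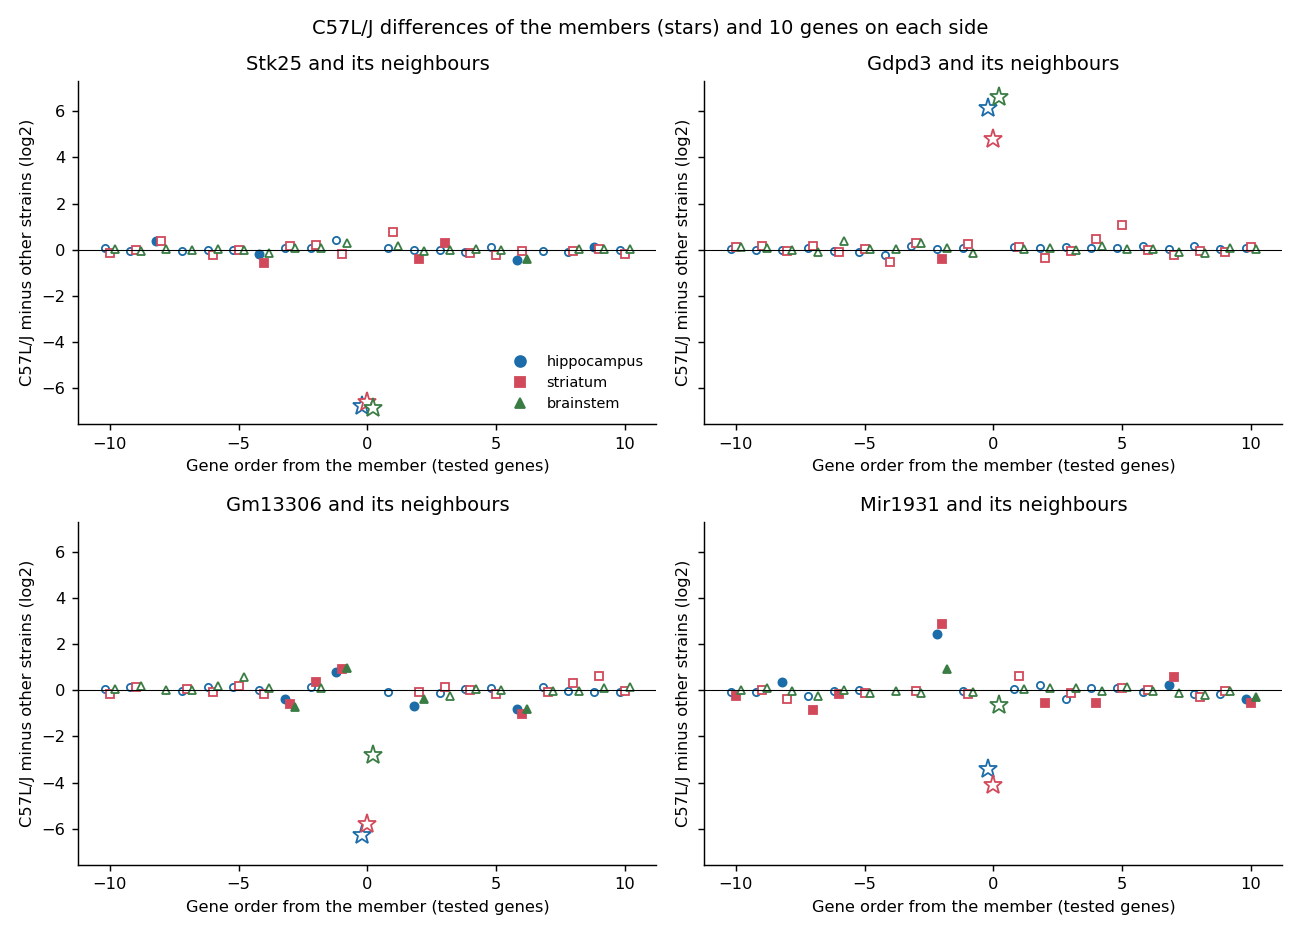
C57L/J minus the mean of the other strains on the log2 scale (vertical axis) for each member (stars, no test) and for the 10 nearest tested genes on each side in chromosome order (horizontal axis), by tissue (colour and shape), with filled symbols where limma's adjusted p was under 0.05. Cfap54, 2 places before Mir1931, lies farthest from 0 among the neighbours in hippocampus and striatum, at 2.43 and 2.90.

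Genes that work with the 4 gene products were taken from 6 lists. Of 19 STRIPAK and GCKIII genes 18 were tested, and hippocampus and brainstem each had 1 called higher and 1 called lower, striatum 1 called lower, with median differences of 0.00, 0.01 and 0.02 against -0.01, -0.03 and 0.01 over all probe sets. Strn, the striatin scaffold of the complex, was lower in hippocampus, striatum and brainstem (differences -0.37, -0.49 and -0.34, adjusted p = 3.3e-05, 0.0434 and 0.0394). BalbC/J was low too in hippocampus and brainstem, differing from C57BL6/J by -0.60 and -0.38 (limma, adjusted p = 2.49e-06 and 0.0474). In striatum BalbC/J did not pass, at 0.12 (adjusted p = 0.856). Ccm2, a gene of the cerebral cavernous malformation complex, averaged 12.13 in C57L/J hippocampus, against 11.46 in the others (difference 0.67, adjusted p = 5.99e-08), and was higher in brainstem by 0.31 (adjusted p = 0.008). The C57L/J calls of Strn were lost in 19 of 26 alternative settings in striatum and 15 of 26 in brainstem (adjusted p up to 0.418 and 0.314). That of Ccm2 in brainstem was lost without the tested or the second untested C57L/J array (adjusted p up to 0.0786). Against C57BL6/J alone Ccm2 differed by 0.12 and 0.05 in hippocampus and brainstem and did not pass (adjusted p = 0.364 and 0.962). Of 10 genes of neuronal polarity and Reelin signalling 2 were called, both in hippocampus. These were Stk11, the polarity kinase LKB1, higher by 0.29 (adjusted p = 0.0487), and Strada, its pseudokinase partner, lower (difference -0.29, adjusted p = 0.0345). These were lost in 15 and 4 of 26 alternative settings (adjusted p up to 0.199 and 0.259). Reln and Dab1 were among the 8 that did not pass.

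Of the other 5 glycerophosphodiester phosphodiesterase genes 4 were tested. Gdpd1 was higher in C57L/J striatum by 0.21 (adjusted p = 0.042) and brainstem by 0.17 (adjusted p = 0.0431), and these calls were lost in 15 and 18 of 26 alternative settings (adjusted p up to 0.213 and 0.318). Against C57BL6/J alone Gdpd1 did not pass, at -0.022 in striatum and -0.068 in brainstem. Of 14 genes of N-acylethanolamine and lysophosphatidic acid metabolism hippocampus had 11 tested and 2 called, striatum 10 and 1, and brainstem 11 and 0, all calls higher. In hippocampus these were Faah, the hydrolase of anandamide, by 0.25 (adjusted p = 0.0117), and Naaa, an acid amidase, by 0.27 (adjusted p = 0.0198). Lpar6, a lysophosphatidic acid receptor, was higher in striatum by 0.42 (adjusted p = 0.0426). The call of Lpar6 was lost in 14 of 26 alternative settings (adjusted p up to 0.212), that of Naaa without the tested or the second untested C57L/J array (up to 0.118) and that of Faah without the tested one (up to 0.142).

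Of 12 chemokine and interleukin-11 receptor genes near or related to CCL27, 2, 3 and 2 had a probe set tested in the 3 tissues. Ccl27a is given above. Ccl28, the other ligand of CCR10, averaged 5.06 and 3.96 in C57L/J hippocampus and striatum, against 2.76 and 2.55 in the others. The differences were 2.31 and 1.41 (adjusted p = 2.4e-07 and 7.03e-06), and Ccl28 was not tested in brainstem. Its C57BL10/J, C57BLKS/J, C3H HeJ and BalbC/J arrays lay below the percentile, at 2.89 or less in hippocampus and 2.64 or less in striatum. The sizes of these differences therefore rest on levels that were not measured above the percentile. Of 14 microRNA processing genes, all tested, 1 was called: Tnrc6c, a partner of Argonaute proteins, lower in hippocampus (difference -0.26, adjusted p = 0.0382), a call lost in 9 of 26 alternative settings (adjusted p up to 0.238). Over all 6 lists hippocampus had 9 of 59 tested genes called, striatum 5 of 59 and brainstem 4 of 59, against 18.7%, 10.8% and 5.4% of all probe sets. List genes stood for their brightest probe sets, while these percentages count all probe sets. Shares this near to the background are no result about these lists. The count in striatum was 11 without the tested C57L/J array, and against C57BL6/J alone the counts were 2, 1 and 2. Beside these, 3, 3 and 2 of 8 microglial markers were called higher in C57L/J hippocampus, striatum and brainstem. Their mean level per array was 9.46 to 9.57 in C57L/J hippocampus, against 8.93 to 9.45 in the others. Their part in these differences was not tested.

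Likeness was measured as Pearson's r over 54 arrays, each centred on its tissue mean. The arrays share strains and the 4 genes were chosen for C57L/J, so r is a description and carries no test. Stk25 and Gdpd3 were opposite (r = -0.961), Stk25 and Gm13306 alike (r = 0.86), and Mir1931 was further from all 3 (r between -0.376 and 0.501). The probe sets most like Stk25 were Nudt19 (r = 0.977), Nbeal1 (0.964), Irak1bp1 (0.963), Galc (0.962) and Serpinb1a (0.958), and the most opposite were Adi1 (-0.965), Bmpr2 (-0.947) and Sbspon (-0.918). Galc, the galactosylceramidase gene, averaged 3.65, 2.47 and 2.91 in C57L/J, against 9.01, 8.79 and 9.30 in the others.

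For Gdpd3 the most alike were Adi1 (r = 0.951), Bmpr2 (0.936), Sbspon (0.931), Ifit2 (0.926) and Atp6v1g1 (0.925), and the most opposite Oxct1 (-0.987), Nbeal1 (-0.985) and Galc (-0.984). Bmpr2, a bone morphogenetic protein receptor gene, averaged 12.37, 11.78 and 12.12 in C57L/J, against 8.73, 6.95 and 8.46. Gm13306 was most like Ggps1 (r = 0.904), Tlr3 (0.903), Extl2 (0.903), Erdr1 (0.892) and Acsl3 (0.887), and most unlike Sbspon (-0.88), Ifit2 (-0.867) and Bmpr2 (-0.849). Mir1931 was most like Zc2hc1a (r = 0.907), Slc35a5 (0.903), Rps9 (0.863), Pigo (0.857) and Prune2 (0.855), and after Cfap54 most unlike Clec16a (-0.923) and Esyt2 (-0.918). Stk25 and Gdpd3 shared Galc, Nbeal1, Adi1, Bmpr2 and Sbspon in opposite places, and none of the 8 genes named for Mir1931 was named for Stk25, Gdpd3 or Gm13306.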

How the data were processed

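Affymetrix expression arrays of hippocampus, striatum and brainstem from 6 strains were used as the authors deposited them, in log2 units. Per the submitters' processing notes, R 2.6.1, affy 1.16.0, RMA, GCRMA 2.10.0 and limma 2.12.0 were named, while the sources used here do not state which of RMA and GCRMA made the deposited log2 values. No scan date or batch is given in the labels, and the growth protocol omits C57BL10/J, which the sample labels name. Gene symbols came from the platform annotation, updated through RefSeq: of 45037 probe sets (64 controls set aside), 34945 had 1 symbol, 932 several and 9160 none here.

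From these values limma 3.58.1 in R 4.3.3 fitted strain and testing over the 18 arrays of each tissue (lmFit and eBayes with intensity trend, two-sided, Benjamini-Hochberg over all probe sets tested). A probe set was tested in a tissue when 3 or more arrays exceeded their own 40th percentile for it, and calls were made at adjusted p under 0.05. A fit over 54 arrays gave tissue differences. Both were tested on simulated data. A gene outside the 4 stood for its brightest probe set.

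The members and lists were chosen with earlier results of these data known. Named genes were the members, the 5 most and 3 least correlated single-gene probe sets, up to 4 called genes per list and tissue with the smallest p, called neighbours over 2-fold, Erdr1, and those stated as chosen later. Replicate numbers were not used to pair the arrays in the main fits. Deviations of arrays with the same pool label in a pair of tissues had median correlations of 0.00907, 0.0873 and 0.00264, with 4, 6 and 3 of 18 pairs over 0.1. These low correlations cannot show whether the tissues came from the same mice. Figures were drawn with matplotlib 3.10.9. The alternatives were other filters, normalizations, variance priors, reference strains, a replicate block and each array left out.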

Additional observations from a re-analysis of the deposited data

Results flagged for a closer look

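The C57L/J difference of 6 named genes that are no members differed between tissues in limma's fit over 54 arrays, by an F test of the difference itself. Cfap54 (adjusted p = 2e-04) had differences of 2.43, 2.90 and 0.95 in hippocampus, striatum and brainstem. Ccl28 (adjusted p = 4.88e-07) had 2.31 in hippocampus and 1.41 in striatum and was not tested by itself in brainstem. All its brainstem arrays, at 3.08 or less, lay below the percentile used as the filter. In hippocampus and striatum its C57BL10/J, C57BLKS/J, C3H HeJ and BalbC/J arrays lay below that percentile too. The F test of Ccl28 therefore rests partly on levels that were not measured above the percentile. Ccm2 (adjusted p = 0.00209) had 0.67, -0.05 and 0.31, and Phf24 (adjusted p = 0.00134) had -0.69, -0.05 and -0.38. Bola2 (adjusted p = 0.00635) had 0.04, -0.41 and 0.06, and Dctn3 (adjusted p = 0.0132) had -0.39, -0.61 and -0.74.

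Among the 5 strains other than C57L/J, the strain differences of Mir1931 differed between tissues (adjusted p = 3.07e-20), with C3H HeJ minus C57BL6/J at -5.05, -6.68 and -1.04. Tissues of a strain may share mice and were fitted as independent.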

How the results depend on the processing

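The C57L/J difference of Stk25, Gdpd3 and Gm13306 kept its direction under every alternative run. These genes were chosen on that contrast and their arrays did not overlap, so nothing is read from this. The number of members called among the 5 other strains stayed at 15 with any 1 array left out. It was 8 with the brightest probe set per gene, which keeps fewer probe sets. That setting gave 7 called tissue differences in C57L/J and 8 over the other strains, and 1886, 1526 and 616 probe sets called for C57L/J in hippocampus, striatum and brainstem, against 5135, 2971 and 1486. Set against C57BL6/J alone, which uses fewer arrays, the counts were 1362, 1121 and 975 probe sets, 2, 1 and 2 list genes and 9 neighbours in striatum. Single values that changed sign there were Ccl27a in hippocampus (-0.063), Naaa in hippocampus (-0.0053) and Gdpd1 in striatum (-0.022) and brainstem (-0.068). The 2 family probe sets changed sign there too in hippocampus, to -0.16 for A and -0.23 for B. Against the 3 other C57 strains they were -0.02 and -0.06. The list genes called in striatum and brainstem, 5 and 4, were 2 and 2 without the filter on dim probe sets and 2 and 2 with the replicate block. The consensus correlation within pool labels was 0.0109.

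With 1 array left out, 3226 to 5921 probe sets were called in hippocampus (fewest without the tested C57L/J array), with 1143 to 4924 for striatum and 973 to 2504 for brainstem. The striatal count was 1143 without the second untested C57L/J array, 1630 without the first and 4924 without the tested one. The brainstem count was 973 without the second untested C57L/J array and 2504 without the second untested C3H HeJ array. List genes called ran from 4 to 10, from 2 to 11 and from 1 to 7 in the same tissues, and neighbours from 11 to 13, from 6 to 25 and from 4 to 10. Members over 2-fold ran from 11 to 14, tissue differences called from 10 to 13 in C57L/J and from 13 to 15 over the other strains, and members called for testing stayed at 0. Over all alternatives, 6718 single values kept their direction and side of the threshold, 192 lost a call and 27 gained one. Another 20, the sign changes of the family probe sets among them, moved by more than the spread between arrays, and 4 more changed sign. The causes were not tested. With median centring, the tissue differences of Gdpd3 over the other strains were called (-0.46, -0.18 and 0.28), at levels below the 40th percentile. Signals below that percentile limit the size of every fold given.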

Other observations

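Over the whole array the pattern of absence in C57L/J and presence on all 15 other arrays, at any size over 2-fold, was met by 9, 9 and 6 probe sets in hippocampus, striatum and brainstem, and presence in C57L/J only by 8, 6 and 6. Prune2, one of the probe sets most like Mir1931, averaged 3.28, 2.88 and 3.98 in C57L/J, against 8.53, 8.19 and 9.52 over the other strains, and Rps9, a ribosomal protein gene, averaged 9.51, 9.20 and 9.81, against 12.61, 12.55 and 12.83. Tlr3, a receptor for double-stranded RNA among those most like Gm13306, averaged 4.11, 3.85 and 7.06 in C57L/J, against 8.18, 7.90 and 9.53. Oligodendrocyte markers were called higher in C57L/J hippocampus for 4 of 7 tested, with a mean per array of 12.57 to 12.76 in C57L/J, against 12.02 to 12.90 in the other strains.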
